A study of Mus musculus with 11 samples.

Results

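The genes examined were 8 of the interferon regulatory factor (IRF) family, Irf1, Irf2, Irf3, Irf4, Irf5, Irf7, Irf8 and Irf9, and the measurement was the occupancy of PU.1 at each of them in 2 kinds of mouse erythroid cell. The genes were listed by name and not by any measured value, although earlier results of these data were known when they were chosen. Each locus was taken as the gene body with 10 kb on each side on the mm9 assembly. They are 8 of 22359 protein-coding genes, and their loci hold 9 of the 9997 regions bound by PU.1 in the genome.

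IRFs are transcription factors that bind repeats of the core GAAA in interferon-stimulated response elements, and they carry the response to interferons and to viral and bacterial products. Irf1 is an activator induced by interferon gamma, and Irf2 is best known as a repressor that competes with Irf1 for the same elements. Irf3 and Irf7 are activated by phosphorylation after virus sensing and drive type I interferon genes, Irf5 acts downstream of Toll-like receptors, and Irf9 acts in the response to type I interferon. Irf4 and Irf8 are different in kind, since they bind DNA weakly alone and are recruited by PU.1 to composite sites, in which the ETS core GGAA is followed by GAAA. PU.1, encoded by Sfpi1, is an ETS factor of myeloid and lymphoid cells that blocks erythroid differentiation when it stays high.

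The MEL cells are a murine erythroleukemia line that carries Gata-1 joined to ER, labelled as clone 4, so they are leukemic cells of 1 clone. The ES-EP are erythroid progenitors derived from embryonic stem cells and kept dividing with erythropoietin, SCF, IGF-1 and dexamethasone. In both, chromatin was immunoprecipitated with the PU.1 antibody T-21 and 4 libraries were sequenced, named A1, A2, B1 and B2, with 1 library of input DNA for MEL cells and 2 for ES-EP. The study's methods give duplicate chromatin preparations. The letters were taken here as the 2 preparations and the numbers as libraries of each, which the labels do not state. The labels name no other allele or treatment. Only genomic DNA libraries were analysed here, so transcript levels of the Irf genes and marker genes of the cells are not given. Reads on the chromosomes numbered 5697937 and 6987141 for MEL A and B, and 6284725 and 7095855 for ES-EP A and B. MEL input held 4278560 reads, and the ES-EP inputs held 2437650 and 5051235. Where samples are set side by side, reads are given as CPM, the reads of a window for each 1000000 reads of its preparation. All intervals below cover counting error only.

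The preparations differed in how much of their reads lay in bound regions. Size factors from the median ratio over all bound regions were 0.751 and 1.18 for MEL A and B, and 1.39 and 0.897 for ES-EP A and B. The inputs differed in their mean at promoters. Over all 500 bp TSS windows it was 3.07 times the genome mean in MEL input and 6.08 and 8.25 times in the ES-EP inputs. The medians were 2.48 times in MEL input and 2.18 and 3.15 times in the ES-EP inputs. At the typical window the inputs therefore did not differ in 1 direction. As a check of the ChIP, a called region 11897 bp upstream of the Sfpi1 TSS used here held 88 and 310 reads (MEL A and B), 366 and 284 (ES-EP A and B), and 7 and 32 reads (MEL and ES-EP input).

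A region was called bound in a cell type when both of its preparations passed, each against the input of that cell type scaled to its depth, a Poisson test with a Benjamini-Hochberg adjusted p below 0.05. By this rule PU.1 was found at 4 of the 8 loci in MEL cells (Irf1, Irf2, Irf5 and Irf7) and at 3 in ES-EP (Irf1, Irf2 and Irf5). Over all protein-coding genes with the same 10 kb flanks, 28.8% had a region bound in MEL cells. The share was 21.6% for ES-EP and 15.7% for genes bound in both, against 3 of the 8 Irf genes in both. With 8 genes these shares are a description. The calls at Irf3, Irf4, Irf8 and Irf9 were 0 in both cell types. Irf2 held 5 of the 9 regions, Irf1 held 2, and Irf5 and Irf7 held 1 each.

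The sequences of the 5 Irf2 regions and of the Irf7 region are shown because they carry the differences between sites described below. All are from the plus strand of mm9, read 5′ to 3′. Irf2 is transcribed from this strand and Irf7 from the other. They cover chr8:47824801-47825050 (site 1), chr8:47826326-47826575 (site 2), chr8:47850426-47850675 (site 3), chr8:47874726-47874975 (site 4), chr8:47937101-47937350 (site 5) and chr7:148442176-148442325 (Irf7). Capitals mark, on either strand, the PU.1 word GAGGAAGT, the composite of GGAA and GAAA with 2 or 3 bases between, and the interferon-stimulated response element of GAAA and GAAA with 2 bases between. At site 5, where none of these words was found, capitals mark the ETS core GGAA.
Irf2 site 1: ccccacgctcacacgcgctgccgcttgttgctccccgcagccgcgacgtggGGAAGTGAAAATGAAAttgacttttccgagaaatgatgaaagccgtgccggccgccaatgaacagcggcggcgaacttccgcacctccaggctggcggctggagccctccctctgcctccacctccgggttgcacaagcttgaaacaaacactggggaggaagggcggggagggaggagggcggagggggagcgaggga
Irf2 site 2: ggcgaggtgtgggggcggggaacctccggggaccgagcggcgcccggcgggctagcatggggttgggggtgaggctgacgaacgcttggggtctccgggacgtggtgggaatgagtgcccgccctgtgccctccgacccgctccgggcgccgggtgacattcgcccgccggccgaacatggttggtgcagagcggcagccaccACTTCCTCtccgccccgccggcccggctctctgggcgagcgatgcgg
Irf2 site 3: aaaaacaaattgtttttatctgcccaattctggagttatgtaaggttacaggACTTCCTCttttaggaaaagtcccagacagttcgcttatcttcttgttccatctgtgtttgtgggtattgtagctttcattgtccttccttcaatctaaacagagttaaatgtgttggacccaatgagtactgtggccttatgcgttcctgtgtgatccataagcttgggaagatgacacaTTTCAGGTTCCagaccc
Irf2 site 4: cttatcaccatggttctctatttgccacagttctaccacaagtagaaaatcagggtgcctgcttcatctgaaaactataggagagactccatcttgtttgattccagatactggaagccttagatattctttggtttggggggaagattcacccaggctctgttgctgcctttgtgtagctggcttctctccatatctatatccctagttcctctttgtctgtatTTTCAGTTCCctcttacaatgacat
Irf2 site 5: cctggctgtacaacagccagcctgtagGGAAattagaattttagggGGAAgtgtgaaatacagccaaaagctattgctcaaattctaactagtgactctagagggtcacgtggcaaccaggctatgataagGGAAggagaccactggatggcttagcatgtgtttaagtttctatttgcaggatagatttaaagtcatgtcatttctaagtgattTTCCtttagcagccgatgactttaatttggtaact
Irf7 site 1: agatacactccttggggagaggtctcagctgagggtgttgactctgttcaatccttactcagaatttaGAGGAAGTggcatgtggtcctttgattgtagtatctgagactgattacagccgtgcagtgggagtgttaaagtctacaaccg

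Irf2, the repressor, held 5 of the 9 regions, and 3 of the 5, with most of the reads, lie in its first intron. Site 2 (chr8:47826201-47826700), 1351 bp downstream of the TSS, held 73 and 161 reads (MEL A and B) and 409 and 189 reads (ES-EP A and B), against 5 reads in MEL input and 33 in ES-EP input. Every preparation lay above its input, and the ES-EP preparations lay above the MEL preparations. As CPM this was 12.8, 23.0, 65.1 and 26.6, and the inputs held 1.17 and 4.41. Over the scaled input the reads were 11.0-fold (MEL A; 95% interval 4.49 to 34.8), 19.7-fold (MEL B; 8.28 to 61.6), 14.8-fold (ES-EP A; 10.4 to 21.8) and 6.04-fold (ES-EP B; 4.16 to 9.04). Because the region was called on the same contrast, these folds are descriptions. Among all 9997 bound regions ordered by reads, the site stood in the top 2.07% and 1.56% (MEL A and B) and 0.72% and 0.84% (ES-EP A and B). Its 300 bp centre is 74.7% G and C and holds the PU.1 word on the minus strand, 83 bp from the centre.

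Site 1 is the Irf2 promoter (chr8:47824701-47825200), centred 149 bp before the TSS, and it overlaps the first exon of the noncoding gene Gm16675 on the opposite strand (chr8:47824516-47824869). It was called in both cell types, with 30 and 61 reads (MEL A and B), 80 and 56 (ES-EP A and B), and 2 and 16 in the inputs. The highest ChIP value here was that of ES-EP A, and the MEL B and ES-EP B values were close, at 8.73 and 7.89 CPM. The summed ChIP reads were 15.4-fold over input in MEL cells (95% interval 4.13 to 129) and 4.76-fold in ES-EP (2.83 to 8.56). These folds rest on unlike inputs, since ES-EP input was high at this promoter. This is the only one of the 9 regions with the response element, and in its sequence the GAAA of the composite (GGAAGTGAAA, chr8:47824852-47824861) is also the first GAAA of the response element (GAAAATGAAA, chr8:47824858-47824867).

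Sites 3 and 4 lie deep in the first intron of Irf2, 25451 and 49751 bp from the TSS, where both inputs were low. Site 3 (chr8:47850301-47850800) was called in MEL cells and not in ES-EP, with 38 and 37 reads (MEL A and B), 22 and 9 (ES-EP A and B), and 4 and 3 in the inputs. With the preparations summed before calling, site 3 was called in ES-EP as well. The MEL preparations were at 6.67 and 5.29 CPM and lay above both ES-EP preparations, at 3.50 and 1.27. MEL input was also the higher here, at 0.935 against 0.401 CPM. The summed ChIP over input was 6.32-fold in MEL cells (95% interval 2.37 to 23.8) and 5.78-fold in ES-EP (1.80 to 29.6). Site 3 holds both the PU.1 word and, 114 bp from the centre, a composite with 3 bases between its cores. Site 4 (chr8:47874601-47875100) was called in both cell types, with 34 and 22 reads (MEL A and B), 54 and 23 (ES-EP A and B), and 1 and 3 in the inputs. Its values in the 2 cell types overlapped, and the ChIP over input was 18.9-fold in MEL cells (95% interval 3.25 to 759) and 14.4-fold in ES-EP (4.74 to 71.2), wide because the inputs held so few reads. It holds a composite with 2 bases between its cores, 106 bp from the centre.

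Site 5 (chr8:47937001-47937500) lies between genes, past the 3′ end of Irf2 and 112151 bp from its TSS. It was called in MEL cells only, with 11 and 10 reads (MEL A and B), 0 and 1 (ES-EP A and B), 0 in MEL input and 1 in ES-EP input. With MEL input set to a floor of 3 reads, MEL A was 2.75-fold and MEL B 2.04-fold over it. The 95% intervals of the ratios to the 0 reads counted began lower, at 1.89 and 1.37. It was a small site, in the lower part of all regions in both MEL preparations (ranks 7608 and 8916 of 9997).

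**Figure D1:**
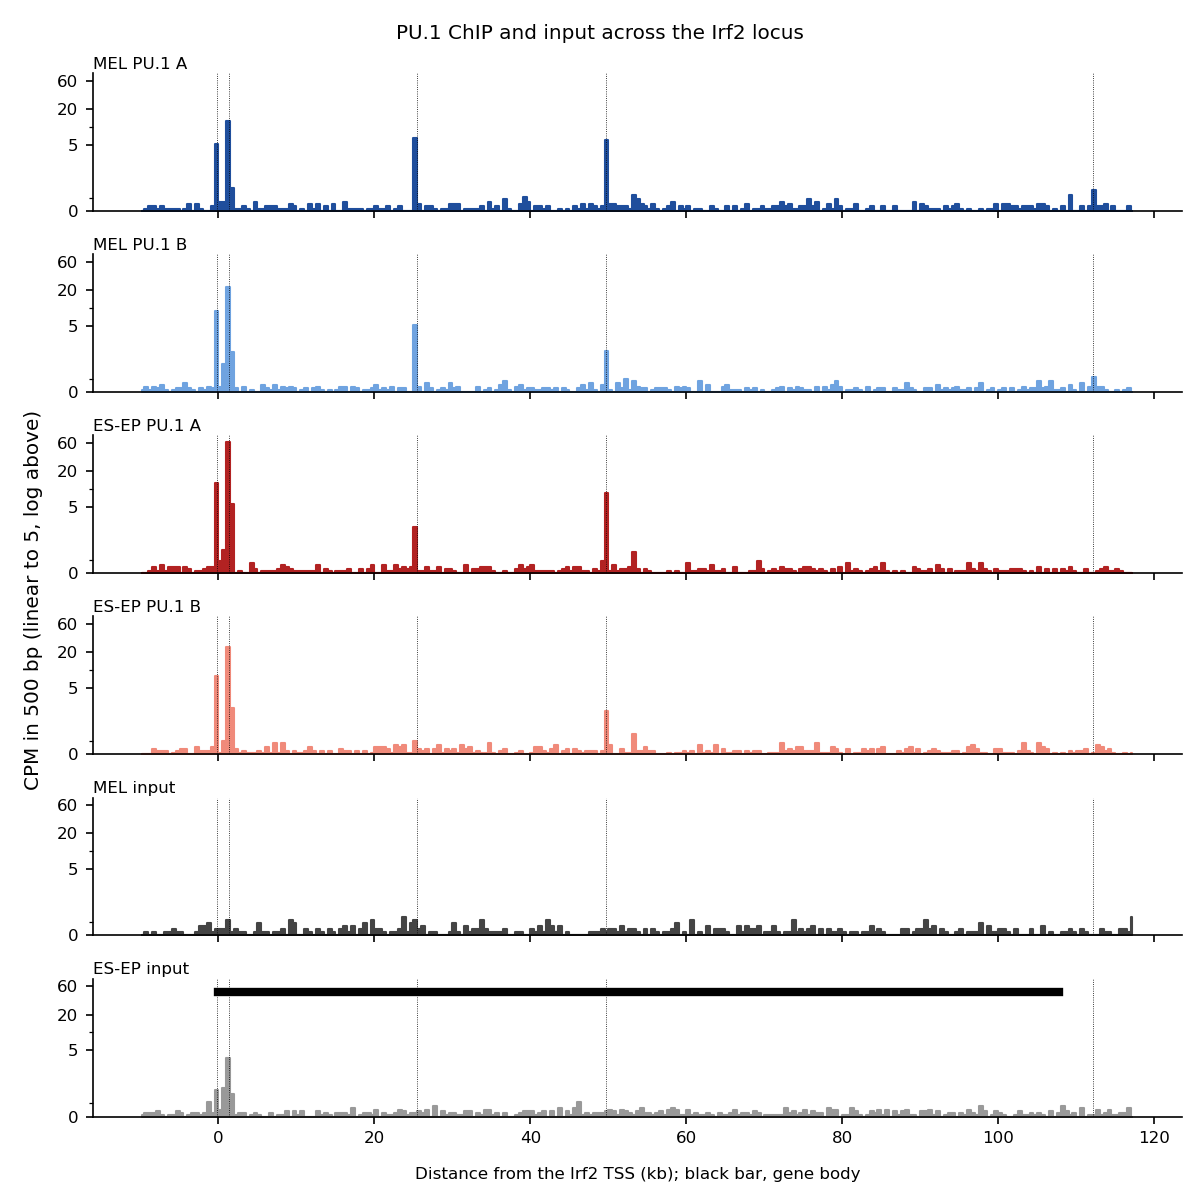
CPM in consecutive 500 bp windows across the Irf2 locus (vertical axis linear to 5 and logarithmic above) against the distance from the TSS in kb, for the 4 PU.1 preparations and the 2 inputs, with dotted lines at the 5 bound regions and a bar for the gene body in the lowest panel. The window centred 1.25 kb downstream of the TSS reached 12.5 and 22.2 CPM (MEL A and B) and 62.5 and 24.8 CPM (ES-EP A and B). The line at the far right marks the small region seen in MEL cells.

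Few genes held as many regions as Irf2. With its flanks Irf2 spans 127714 bp, the longest of the 8 loci, and 56 of the 22359 genes (0.25%) held 5 or more regions. Among the 3658 genes between 0.5 and 2 times the length of Irf2, 21 (0.574%) did so. Input differed between the cell types on chromosome 8, which carries Irf2 and Irf8. MEL input held 0.732 times the ES-EP input there, relative to the median autosome, against 0.963 to 1.04 on the chromosomes of the other 6 genes. Reads were not corrected for this, and its part in the Irf2 values was not tested.

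Irf1, the interferon gamma-induced activator, carried PU.1 at its promoter and in an intron. Site 1 (chr11:53583301-53583800) covers the starts of 4 of the 8 coding transcripts of Irf1 and their untranslated first exon, and is centred 429 bp before the TSS used here, where the other 4 start. It held 13 and 29 reads (MEL A and B), 43 and 26 (ES-EP A and B), 1 in MEL input and 16 in ES-EP input. It was called in MEL cells and not in ES-EP, although the ChIP values overlapped, at 6.84 and 3.66 CPM in the ES-EP preparations and 2.28 and 4.15 CPM in the MEL preparations. With the preparations summed before calling, it was called in ES-EP as well. The ES-EP input at this site was 2.14 CPM and that of MEL cells 0.234 CPM, and ES-EP A and B were 3.20-fold and 1.72-fold over theirs. The part of the higher ES-EP input in the missing call was not tested.

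Site 2 of Irf1 (chr11:53585901-53586400) is centred in an intron, 2171 bp from the TSS, over an exon of the predicted gene Gm17334 on the other strand, and its end reaches into an Irf1 exon (chr11:53586341-53586440). It was called in both cell types, with 32 and 53 reads (MEL A and B), 31 and 15 (ES-EP A and B), and 3 and 2 in the inputs. Here MEL values were above ES-EP values in all 4 pairs of preparations, at 5.62 and 7.59 against 4.93 and 2.11 CPM. The ChIP over input was 9.56-fold in MEL cells (95% interval 3.16 to 47.3) and 12.9-fold in ES-EP (3.37 to 110).

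Irf5, which acts downstream of Toll-like receptors, had a single region over its start (chr6:29476601-29477100, centred 225 bp into the gene in the first intron). It was called in both cell types, with 27 and 75 reads (MEL A and B), 80 and 46 (ES-EP A and B), and 5 and 22 in the inputs. The values of the cell types overlapped, at 4.74 and 10.7 CPM (MEL cells) and 12.7 and 6.48 CPM (ES-EP). The means of 7.74 ± 4.24 and 9.61 ± 4.42 CPM (SD, n = 2 each) differed by less than the spread within a cell type. The region is the richest in G and C of the 9, at 75.3% of the central 300 bp, and holds 1 GGAA core.

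Irf7, the inducible driver of type I interferon genes, had no region at its own promoter by the rule that both preparations pass. With the preparations summed a region 1630 bp into the gene (chr7:148450501-148451000) was called in ES-EP, with 8 and 6 ES-EP reads against 2 in input, and 8 and 11 MEL reads against 1. The region counted at its locus (chr7:148442001-148442500) is centred 10130 bp downstream of its TSS, inside the neighbouring gene Phrf1, whose nearest coding transcript start is 2839 bp away. The centre is intronic in the coding transcripts of Phrf1, the end of the region reaches into a Phrf1 exon (chr7:148442397-148442578), and in 2 retained-intron transcripts the whole region lies in an exon (the longer at chr7:148441902-148442578). It held 18 and 12 reads (MEL A and B), 18 and 9 (ES-EP A and B), and 1 and 4 in the inputs. The values of both cell types overlapped, and only MEL cells passed the call in both preparations. With the preparations summed this region was called in ES-EP as well, where 51.4% of all genes then had a region. The PU.1 word lies 2 bp from the centre of the window.

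**Figure D2:**
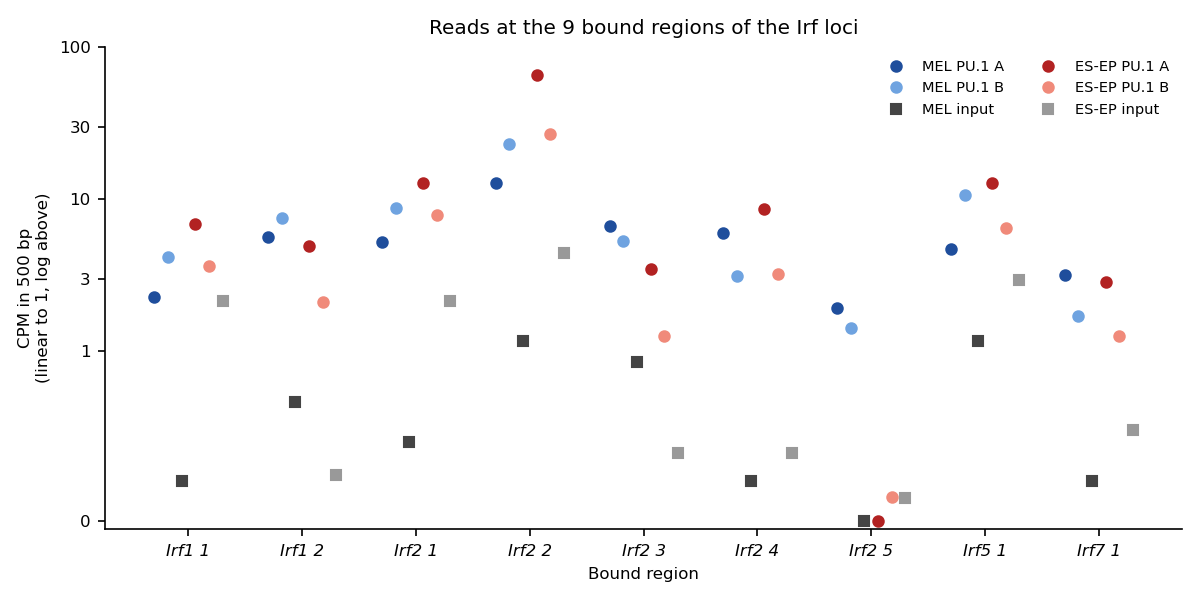
CPM in the 500 bp of each of the 9 bound regions (vertical axis linear to 1 and logarithmic above), with circles for the 4 PU.1 preparations and squares for the inputs. Irf2 site 2 stood highest in every preparation, and ES-EP input (grey squares) was between 2.14 and 4.41 CPM at the promoter regions of Irf1, Irf2 and Irf5 and at Irf2 site 2.

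At the 4 other genes no window passed in both preparations. Irf4, a lymphoid partner of PU.1, passed the test against input at its TSS in 1 of the 4 preparations, ES-EP A. In the 500 bp centred on its TSS MEL A and B held 1 and 4 reads against 2 in input, and ES-EP A and B held 12 and 4 against 0 in input. ES-EP A passed the test of TSS windows on its own (exact binomial, adjusted p = 0.00106 over all TSS windows), as did 12.9% of all TSS windows, and ES-EP B did not (adjusted p = 0.509). When the preparations were summed before calling, a region just upstream of Irf4 (chr13:30840701-30841200, centred 145 bp before the TSS) was called in ES-EP and not in MEL cells, with 13 and 5 reads in ES-EP, 1 and 3 in MEL cells and none in either input. Summed preparations also gave a region 53151 bp into Irf2 in ES-EP (11 and 12 reads against 2) and one 2725 bp into Irf5 in MEL cells (7 and 17 against 2). Under that looser call 51.4% of all genes had a region in ES-EP. With preparation B left out Irf4, Irf7 and Irf9 were called in ES-EP as well, where 46.5% of all genes were.

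Irf8, the myeloid partner of PU.1, had no region with summed preparations or under any other calling or flank setting tried. Its TSS window held 4 and 4 reads (MEL A and B) against 0 in input, and 11 and 8 (ES-EP A and B) against 9 in input. Over the whole Irf8 locus ES-EP A was 0.671 times and ES-EP B 1.06 times the scaled input. The ES-EP input itself was 2.17 times the genome mean across this locus, and 8.98% of genes had as much or more, while MEL input was 1.32 times its mean. High ES-EP input was not particular to Irf8. It was 2.25 times the genome mean at Irf3, 2.01 times at Irf9 and 1.94 times at Irf1, and 1.33 times at the median gene. MEL input was 2.56, 1.76 and 2.52 times its mean at Irf3, Irf9 and Irf1, and 1.4 times at the median gene. Irf3 and Irf1 were thus higher in MEL input than in ES-EP input, and Irf8 and Irf9 were lower.

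Irf3, the constitutive virus-responsive factor, had 4 and 9 reads (MEL A and B) and 6 and 7 reads (ES-EP A and B) in its TSS window, with 2 in each input. Irf9, which acts in the type I interferon response, had 3 and 4 (MEL A and B) and 2 and 3 (ES-EP A and B), with 1 and 3 in the inputs. Neither gene passed the exact test against input there in any preparation. With summed preparations a region at the start of each was called in ES-EP (132 bp into Irf3, with 14 and 12 ES-EP reads against 4 in input, and 342 bp into Irf9, with 12 and 4 against 2), and neither was called by the rule used here, in which each preparation has to pass. A second Irf9 region (11242 bp from the TSS, with 9 and 9 ES-EP reads against 2) was also called in ES-EP with summed preparations. With them an Irf3 region past the end of the gene (chr7:52263101-52263600, with 10 and 17 MEL reads against 1) was called in MEL cells, where 64.5% of all genes then had a region. Irf3 was also called in MEL cells with preparation A left out, where 60.1% of all genes were, and Irf9 in ES-EP with 25 kb flanks, where 30.2% were. With input taken over 10 kb only, Irf3 and Irf7 were called in ES-EP with both preparations passing, where 56.6% of all genes were.

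**Figure D3:**
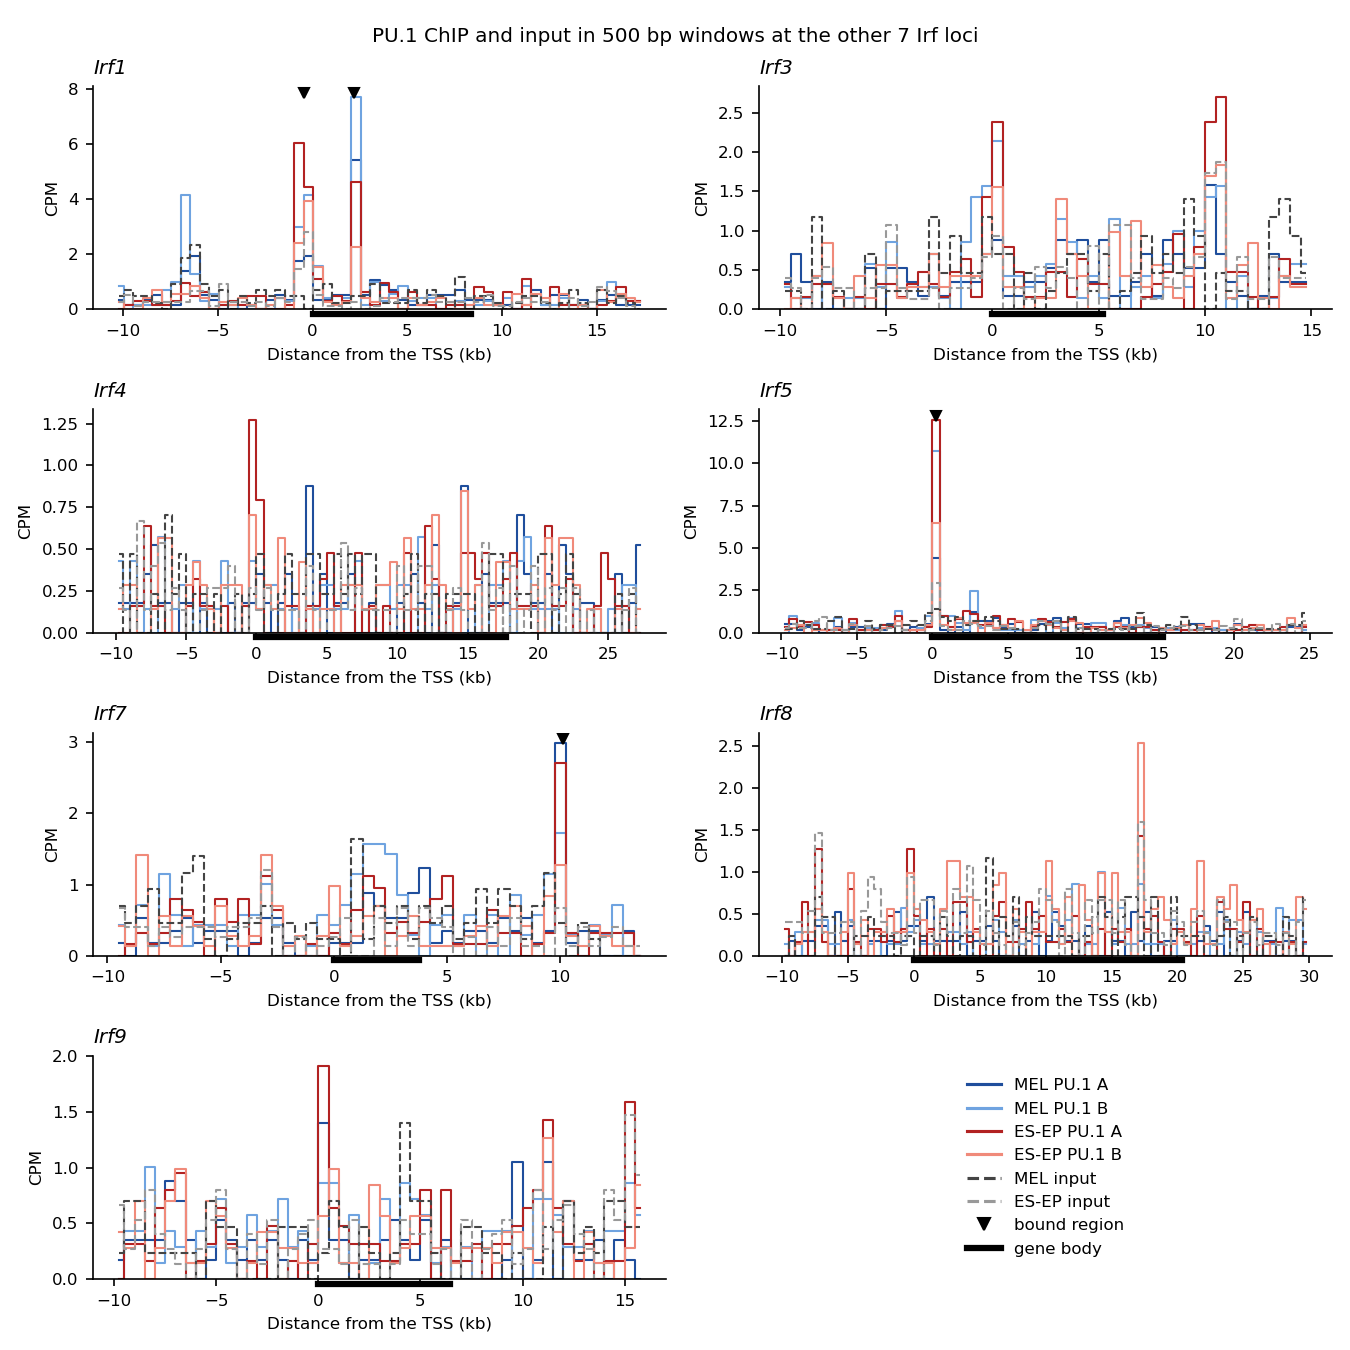
CPM in consecutive 500 bp windows (vertical axes linear, a scale for each gene) against the distance from the TSS in kb at the 7 loci other than Irf2, with solid lines for PU.1 preparations, dashed lines for inputs, triangles at bound regions and a bar for the gene body. At Irf8 the highest ES-EP window, 17.25 kb from the TSS, held 1.43 and 2.54 CPM where the input held 1.60 CPM, and at Irf5 a single peak rose at the start of the gene.

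The 500 bp around each TSS were also tested, each preparation against input by an exact binomial test adjusted over 22359 windows, and fewer of the 8 genes passed in both preparations. Irf2 was the 1 member above input in ES-EP (26 and 25 reads against 7, adjusted p = 0.00182 and 0.0293), where 3.82% of all genes were. None of the 8 was above input in both MEL preparations, where 2.7% of all genes were, and at an unadjusted p under 0.05 Irf2 and Irf5 were, 2 of the 8, against 8.3% of all genes. With 1000 bp around the TSS Irf2 was above input in both MEL preparations, as were 4.04% of all genes. In MEL B alone Irf1 (35 reads against 3, adjusted p = 0.000648), Irf2 (38 against 3, adjusted p = 0.000271) and Irf5 (67 against 5, adjusted p = 1.18e-07) passed the exact test, while MEL A held 12, 18 and 21 reads in these windows. In ES-EP A alone Irf5 passed the exact test too (70 reads against 17, adjusted p = 1.08e-09), beside Irf2 and Irf4, and ES-EP B held 35 reads there (adjusted p = 0.144). In MEL B alone 15.7% of all TSS windows passed, and its median window was 2.01-fold over input, against 1.13-fold in MEL A. With the preparations summed, Irf1, Irf2 and Irf5 were above input in MEL cells, where 10.4% of all genes were. In ES-EP the genes above input were then Irf2, Irf4 and Irf5, where 9.13% of all genes were.

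MEL cells and ES-EP were then compared at the 9 regions, to ask whether leukemic and dividing normal erythroid cells differ in PU.1 at these genes. With limma over the 4 preparations (2 against 2), adjusted over all 9997 regions, 1 of the 9 passed, Irf2 site 5. This region entered the set through the call in MEL cells alone, so that its direction was fixed by the call and its values are a description. Its log2 fold change of MEL cells over ES-EP was 3.74 (SE 0.75, adjusted p = 5.42e-05), from 21 reads against 1 (22.2-fold after scaling by depth, 95% interval 3.56 to 916). Over 11 other settings the log2 fold change ran from 1.94 (limma on log2 CPM plus 0.5) to 4.44, and it was 2.62 with 200 bp windows. The adjusted p was below 0.05 in 6 of the 11, with a range from 8.93e-07 to 0.135. It was above 0.05 with 200 bp windows (adjusted p = 0.135), where 3 of the 9 regions and 21.3% of all regions had an unadjusted p under 0.05, and when any of the 4 preparations was left out. The log2 fold change was then 3.54 without MEL A (adjusted p = 0.121), 3.96 without MEL B (0.126), 3.04 without ES-EP A (0.0617) and 4.44 without ES-EP B (0.0699). In these fits 1 cell type has a single preparation, which is assumed to vary like the other cell type. Over all regions 10.8% were higher in MEL cells and 5.4% higher in ES-EP, so that 1 region of 9 is near the background. Among the 4647 regions called in MEL cells and not in ES-EP, 22.6% were higher in MEL cells.

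At the other 8 regions the differences did not pass in this fit. The sizes were 1.46 at Irf2 site 3 (SE 0.64, adjusted p = 0.101), 0.97 at Irf1 site 2 (SE 0.66, adjusted p = 0.344) and -1.28 at Irf2 site 2 (SE 0.83, adjusted p = 0.314). The remaining 5 lay between -0.72 and 0.29. The 3 promoter regions, where ES-EP input was high, had -0.72 (Irf1 site 1, SE 0.64), -0.58 (Irf2 site 1, SE 0.75) and -0.37 (Irf5 site 1, SE 0.75). With median-ratio scaling, which sets the typical region equal and moves the median of all regions from -0.23 to -0.04, 4 of the 9 regions passed. They were Irf2 site 5, Irf2 site 3 (1.58, adjusted p = 0.00277) and Irf1 site 2 (1.14, adjusted p = 0.0164), higher in MEL cells, and Irf2 site 2 (-1.11, adjusted p = 0.0375), higher in ES-EP. Under this scaling 18.9% of all regions were higher in MEL cells and 11.8% higher in ES-EP, and sites 3 and 5 of Irf2 had been called in MEL cells alone. With each library taken as a sample, 3 of the 9 passed by limma, Irf2 site 5, Irf2 site 3 (1.49, adjusted p = 0.0157) and Irf2 site 2 (-1.27, adjusted p = 0.0405). In that fit 14.4% of all regions were higher in MEL cells and 10.6% higher in ES-EP. Libraries of the same preparation are not independent replicates, so these adjusted p-values do not measure the spread between preparations. Limma took the ChIP reads without the inputs. At Irf2 site 2 input was 1.17 CPM in MEL cells and 4.41 CPM in ES-EP. Summed ChIP over input there was higher in MEL cells, 15.8-fold (interval 6.67 to 49.1) against 10.1-fold (7.14 to 14.9). At Irf1 site 2 the order also turned (9.56 in MEL cells, 12.9 in ES-EP), and at Irf2 site 3 it did not (6.32 and 5.78). The part of the inputs in these differences was not tested. Without ES-EP A, when ES-EP is the single preparation B and the spread comes from the MEL preparations, the 1 region that passed was Irf2 site 3 (2.18, adjusted p = 0.0387), where 9.99% of all regions were higher in MEL cells.

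**Figure D4:**
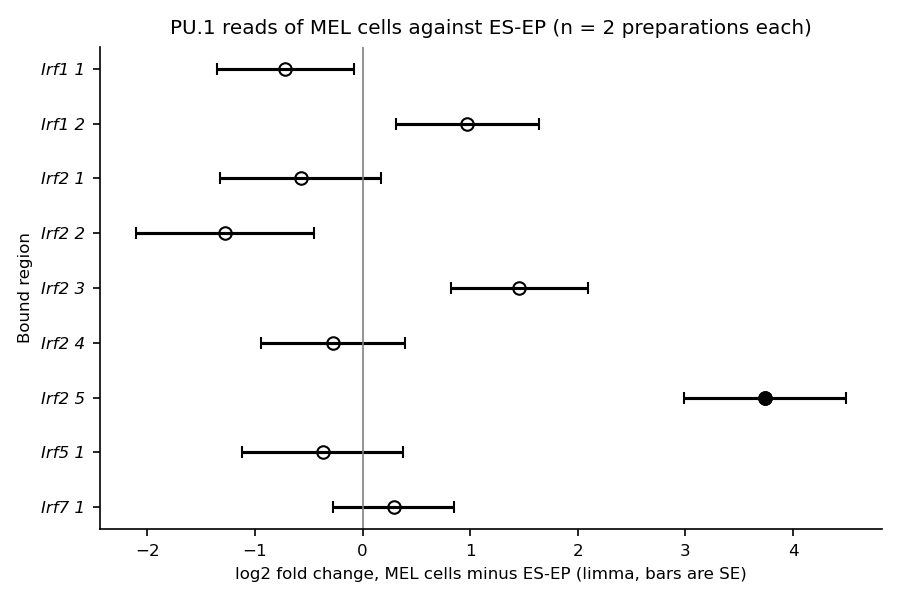
Log2 fold change of PU.1 reads, MEL cells minus ES-EP, at each of the 9 bound regions, with bars for the SE and a filled point where the adjusted p was below 0.05 (limma, 2 preparations per cell type). Irf2 site 5 lay at 3.74, and the 8 open points ranged from -1.28 to 1.46.

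Taken over the whole locus with its flanks, PU.1 reads stood above input at Irf2 more than at the typical gene. The ratio of ChIP to scaled input was 1.20 and 1.30 (MEL A and B) and 2.08 and 1.43 (ES-EP A and B), and the medians over 21922 genes were 0.948, 1.02, 1.03 and 1.05. In ES-EP A the Irf2 value was above the 95th percentile of all genes (1.77), and in ES-EP B it lay just below it (1.44). Of the 8 genes Irf2 had the highest ratio in MEL A and in both ES-EP preparations, and in MEL B Irf1 was above it at 1.42. The order of the other genes changed between preparations. Irf5 and Irf1 stood at 1.67 and 1.58 in ES-EP A, and at 1.29 and 1.21 in ES-EP B. Irf4 was at 0.865 and 0.854 (MEL A and B) and 1.12 and 1.29 (ES-EP A and B).

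**Figure D5:**
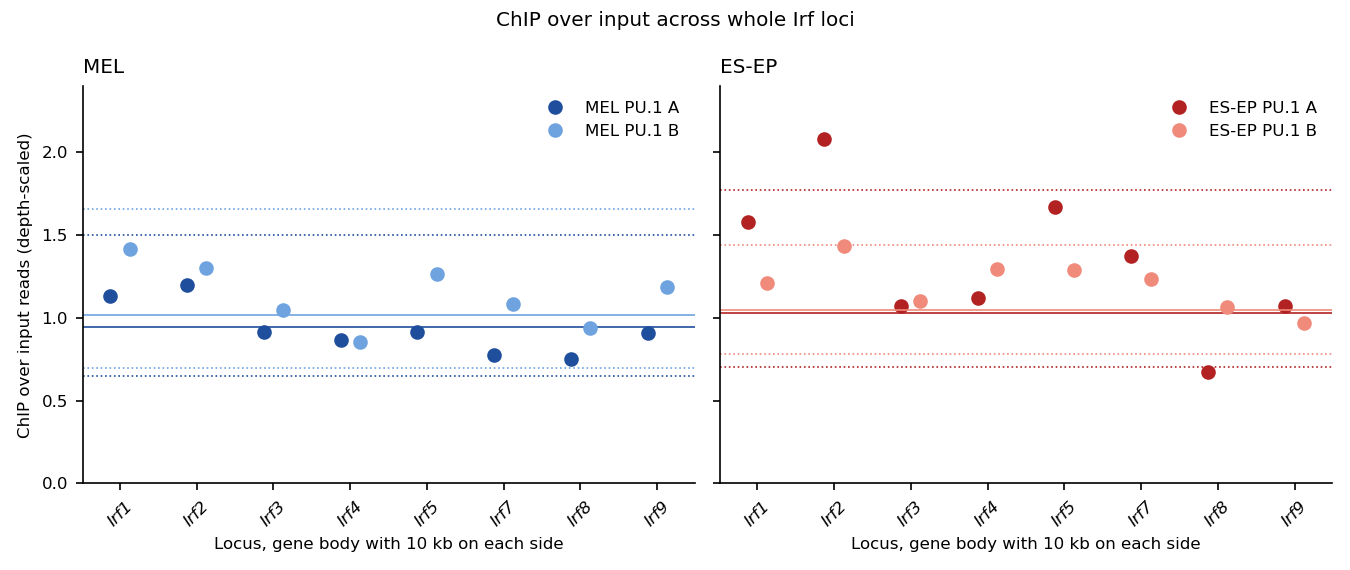
Ratio of ChIP to depth-scaled input reads over each whole Irf locus, with MEL cells on the left, ES-EP on the right and a point per preparation, solid lines at the median over all genes and dotted lines at the 5th and 95th percentiles, each in the colour of its preparation. Irf2 in ES-EP A lay above the upper dotted line at 2.08, and Irf8 in ES-EP A lay below the lower one at 0.671.

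The regions differed in the words they hold. In the 300 bp around the centre the PU.1 word GAGGAAGT was found at 3 of the 9 regions (Irf2 sites 2 and 3 and Irf7), against 26.6% of all bound regions and 2.94% of TSS windows. The composite with 2 bases between was found at 2 of the 9 (Irf2 sites 1 and 4), against 3.93% and 2.37%, and the one with 3 bases at 1 (Irf2 site 3), against 3.64% and 2.37%. The response element was found at 1 (Irf2 site 1), against 3.36% and 3.21%. In 500 bp the composite with 3 bases was found at 2 of the 9, against 5.65% of all bound regions. Within 300 bp every composite and the response element lay at Irf2, and the centres of the Irf1 and Irf5 regions held only the GGAA core, which 97.5% of all bound regions hold. These counts are over so few regions that no share of them is a result.

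Genes around the IRF pathway were read in the same way, from 4 lists, beside the shares of all genes given above (28.8% in MEL cells, 21.6% for ES-EP, 15.7% for both). Of 14 interferon receptor and signalling genes, 5 were bound in ES-EP and 7 in MEL cells, 4 of them in both. Of 16 activators of IRFs the numbers in the same order were 3, 4 and 3, and of 22 interferon-stimulated genes 5, 6 and 4. The list of partners and cofactors held 13 names, with the PU.1 gene entered as both Sfpi1 and Spi1. Of these names 11 were found in the annotation, all but Spi1 and Irf2bpl, and 6, 5 and 4 of them were bound. Of the 6 sensors in the activator list Tlr9 was bound in both cell types, and Tlr3, Tlr4, Tlr7, Ddx58 and Ifih1 had no region in either. Ifnar1, a chain of the type I interferon receptor, was called in ES-EP and not in MEL cells. These genes were picked out after their calls were seen.

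In each list the 3 genes with most ChIP over input are given, among those with a region called in both cell types. Batf, bound in each cell type at a different region, was left out of this order. Folds here are summed ChIP over summed input reads of both cell types, scaled by depth, although the inputs differed in their mean at promoters. When inputs under 3 reads were set to 3, the order in MEL cells alone differed in every list. In ES-EP alone it differed in every list but that of interferon-stimulated genes. In the lists with 4 such genes the 3 genes themselves changed in MEL cells. Socs1 (5.17-fold), which restrains cytokine signals, took the place of Stat3, and Oasl1 (15.0-fold), an interferon-stimulated gene, that of Adar. MEL input held fewer than 3 reads at 9 of the 19 regions ordered and ES-EP input at 4, so the order is not firm in either cell type. Among receptor and signalling genes the folds over both cell types were 19.6 at the promoter of Ifngr1, a chain of the interferon gamma receptor, 12.9 at a region near Stat3, a transducer shared by many cytokines, although Stat5a has the nearest TSS, and 8.35 near Ptpn6, a phosphatase that damps cytokine signals, although Grcc10 has the nearest TSS. With the floor of 3 input reads Ptpn6 stood above Stat3 in each cell type alone (4.50 against 4.16 in MEL cells, 9.93 against 9.14 in ES-EP). Among activators, Tlr9, the sensor of CpG DNA, held 31 and 34 reads (MEL A and B) and 40 and 21 (ES-EP A and B), with 1 in each input. Irak1, the kinase that acts below Myd88, was 16.8-fold at its start. Traf3, an adaptor for the kinases that activate Irf3, held 59 and 137 reads (MEL A and B), 303 and 127 (ES-EP A and B), and 1 and 22 in the inputs.

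Among interferon-stimulated genes the folds were 36.9 at a region near Irgm1, an interferon-induced GTPase, although Trim7 has the nearest TSS, 9.31 at Adar, which edits double-stranded RNA, and 6.73 at Ifi35, where Rpl27 has the nearest TSS. Among partners they were 24.5 at Prdm1, a repressor that binds elements like those of IRFs, 21.5 at Ikzf1, a lymphoid factor with 8 regions, and 12.3 at the promoter region of Sfpi1. With inputs under 3 reads set to 3, Ikzf1 stood above Prdm1 in each cell type alone (10.3 against 7.98 in MEL cells, 38.5 against 17.2 in ES-EP). Of the 38 regions at listed genes 3 (7.89%) passed limma between the cell types, all higher in MEL cells, where 10.8% of all regions were. All 3 were called in MEL cells and not in ES-EP, so their direction was fixed by the call and their values are a description: Usp18, which restrains interferon signalling (log2 fold change 2.22, SE 0.64, adjusted p = 0.00716), Gbp2, an interferon-induced GTPase (2.17, SE 0.65, adjusted p = 0.00933), and Myd88, the adaptor of Toll-like receptors (1.90, SE 0.64, adjusted p = 0.0226). Each of the 3 missed the threshold when MEL A (adjusted p from 0.162 to 0.276), MEL B (0.178 to 0.248) or ES-EP B (0.072 to 0.166) was left out. With 200 bp windows the Usp18 difference was 0.06 (limma adjusted p = 0.976) and that of Gbp2 missed the threshold (adjusted p = 0.0523). With the letter as a block Myd88 missed it (adjusted p = 0.0545). These fits did not use the inputs. MEL and ES-EP input held 6 and 3 reads at Usp18, 5 and 0 at Gbp2 and 3 and 4 at Myd88, and MEL input was the smaller library set. On chromosome 3, which carries Gbp2, MEL input was 1.33 times ES-EP input relative to the median autosome. The part of the inputs in these differences was not tested.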

How the data were processed

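Sequencing by the authors used an Illumina GAII, and ELAND placed the reads on mm9, keeping unique alignments with up to 2 mismatches. Version and options are not given in the sources used here. Each line of a deposited file is 1 aligned read and carries no measured value, and per the labels each file is a library, so all counts were made from these lines. Their starts, counted from 1, matched the NCBIM37 genome (mm9) at 99.95% or more of 2000 reads per library. Reads that fit several places were not kept, so near-identical sequence is undercounted.

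Reads were moved by 70 bp (MEL) or 65 bp (ES-EP) toward the middle of the fragment. Windows of 500 bp, moved by 100 bp, were tested per preparation with a one-sided Poisson test. Its mean was the greatest among the genome mean and the input, scaled to depth, over the window and over 1, 5 and 10 kb. Repeated positions were left out, Benjamini-Hochberg adjustment covered 26548870 windows, and windows below 0.05 in both preparations were joined over both cell types. With ChIP and input exchanged 240 regions were called. All reads were counted in the highest 500 bp. Cell types were compared with limma 3.58.1 (voom, two-sided moderated test, R 4.3.3) on the reads counted in each region. The 2 libraries of a preparation were summed. TSS windows took an exact binomial test, two-sided. Genes came from GENCODE on NCBIM37, and the TSS of a gene is the most upstream in the largest cluster of its coding transcript starts (steps of up to 100 bp). Counting used Python 3.11.15.

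Members and lists were chosen with earlier results of these data known. Named are all members with their regions, and listed genes that are among the 3 with most ChIP over input and bound in both cell types, or that differ by limma. Other genes are said to be picked after their values were seen. The calling and the limma step were also run on simulated data, and the outcomes are not given here. Letters A and B were not used as pairs: deviations of the A preparations correlated with r = -0.0623.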

Additional observations from a re-analysis of the deposited data

Results flagged for a closer look

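Irf2 site 5, past the 3′ end of Irf2, was called in MEL cells and not in ES-EP, which fixes its direction, and it passed the comparison of the cell types with a log2 fold change of 3.74 for MEL cells over ES-EP (limma, adjusted p = 5.42e-05). It is also where single libraries stood apart from the other 3 libraries of their cell type. As reads for each 1000000 of the library (CPM), the first library of MEL A held 2.92 CPM at this site, and the other MEL libraries held 1.37 to 1.46. The second library of ES-EP B held 0.207 CPM, which is 1 read, and the other ES-EP libraries held 0. The MEL libraries held 6, 5, 4 and 6 reads here. The rule that sets libraries apart does so for about 1 in 20 groups by chance, and that rate does not apply to counts as low as these, where a single read is enough.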

How the results depend on the processing

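Irf1, Irf2, Irf5 and Irf7 were called in MEL cells under every calling and flank alternative, except that Irf7 was missed with the first libraries alone and with 2 kb flanks and Irf5 with the second libraries alone. In ES-EP the number of members bound was 1 with the first libraries alone, 5 with input taken over 10 kb only and 7 with summed preparations, which also gave 17 regions. Over the whole genome ES-EP regions numbered 1383, 16247 and 20299 in the same order, against 5350 in the main call. Without a preparation the number of members bound ranged from 3 to 6 in ES-EP and from 4 to 5 in MEL cells, with 12 to 13 regions. TSS windows above input numbered 1 in MEL cells with 1000 bp (Irf2, with 903 of all 22359), and 3 in each cell type with summed preparations. In MEL against ES-EP, 1624 regions passed, 1385 with the replicate block (letter as pair), where Irf2 site 5 was again the 1 member region. The letters name no shared batch. The count was 3061 with median-ratio scaling (4 member regions). With each library a sample it was 2495 (3, Irf2 sites 2, 3 and 5), although libraries of the same preparation are not independent. With 200 bp windows it was 809 (0 member regions by limma, and 3 at an unadjusted p under 0.05, as were 2126 of all 9997). Leaving out a preparation gave 0 to 1169 regions and 0 to 1 member regions, the 1 being Irf2 site 3 without ES-EP A. With ES-EP B left out none passed by limma, and 2676 had an unadjusted p under 0.05. The cause was not tested. Signs of values that did not pass turned at Irf2 site 1 with 200 bp windows (0.058). With these windows Irf5 site 1 moved from -0.373 to -1.62 (SE 0.721, limma adjusted p = 0.154). On leaving out each preparation in turn, values ran from -0.922 to 0.464 at Irf2 site 4, from -0.933 to 0.228 at Irf5 site 1 and from -0.278 to 0.867 at Irf7 site 1, with signs that turned. The most upstream TSS was added as an alternative after seeing the data and changed no member call.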
